A study of Homo sapiens with 12 samples.

Results

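Transcripts of 10 genes of the interleukin-1 system were followed in 2 human melanoma cell lines and their vemurafenib-resistant derivatives. The genes encode the cytokines interleukin-1 alpha (IL1A), interleukin-1 beta (IL1B), interleukin-18 (IL18) and interleukin-33 (IL33), the receptor antagonist (IL1RN), both receptor chains (IL1R1 and IL1RAP), the processing protease caspase-1 (CASP1), and the signalling proteins MYD88 and IRAK1. They were taken by symbol, and all 10 were among the 26499 genes of the count files.

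Poly(A)-selected RNA of the established human melanoma lines A375 and SKMel28 was sequenced from 4 groups of 3 libraries: resistant A375, sensitive A375, resistant SKMel28 and sensitive SKMel28. All cells grew in DMEM with 10% fetal bovine serum. For resistant cells the medium held 1 µmol/L vemurafenib, an inhibitor of mutant BRAF, and no drug is named for sensitive cells, so resistance and the presence of the drug cannot be told apart. The question behind the series, per its design text, concerns IGF1 signalling in melanoma cells that no longer respond to such drugs. The labels do not say how many clones each resistant derivative came from, or whether replicate libraries stem from independent cultures. The spread behind every p-value is that between libraries and may be technical.

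Interleukin-1 alpha and beta bind the receptor chain IL1R1, which then recruits the accessory chain IL1RAP. The intracellular parts of the pair assemble MYD88 and kinases of the IRAK family, and the signal ends in NF-kB and MAP kinase activation and in transcription of chemokines, cytokines and proteases. IL1RN occupies IL1R1 without recruiting the accessory chain. Interleukin-1 beta and interleukin-18 are made as inactive precursors that caspase-1 cuts inside inflammasomes, so a transcript level says nothing of how much active cytokine a cell releases. Interleukin-33 signals through IL1RL1, again with IL1RAP. Myeloid cells are the classical source of interleukin-1 beta, and some melanoma cells also make it.

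The genes IL1A (chr2:112773915-112784590), IL1B (chr2:112829751-112836903) and IL1RN (chr2:113107214-113134016) lie in 1 cluster on the long arm of chromosome 2 (GENCODE release 29, GRCh38), with 45.2 kb between IL1A and IL1B and 270.3 kb between IL1B and IL1RN. IL1A and IL1B are on the minus strand and IL1RN is on the plus strand. The 250 bases before the RefSeq transcript start of these 3 genes (GRCh38.p14) are shown. They were chosen because the order of the 4 groups by level differed between these genes. All 3 had fewer reads in resistant than in sensitive SKMel28. The same stretch of IRAK1, the member with the most transcripts per kilobase, stands beside them. The windows are chr2:112784494-112784743 for IL1A, chr2:112836780-112837029 for IL1B, chr2:113117721-113117970 for IL1RN and chrX:154019903-154020152 on the minus strand for IRAK1. Each is written 5′ to 3′ on the strand of its gene. Capitals mark a match on either strand to the letters TATAAA of the TATA box or TGANTCA of the AP-1 site.
IL1A: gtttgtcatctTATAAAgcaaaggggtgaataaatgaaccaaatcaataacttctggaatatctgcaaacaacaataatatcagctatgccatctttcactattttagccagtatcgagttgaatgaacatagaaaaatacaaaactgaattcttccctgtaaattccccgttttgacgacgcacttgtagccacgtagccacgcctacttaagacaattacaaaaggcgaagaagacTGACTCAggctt
IL1B: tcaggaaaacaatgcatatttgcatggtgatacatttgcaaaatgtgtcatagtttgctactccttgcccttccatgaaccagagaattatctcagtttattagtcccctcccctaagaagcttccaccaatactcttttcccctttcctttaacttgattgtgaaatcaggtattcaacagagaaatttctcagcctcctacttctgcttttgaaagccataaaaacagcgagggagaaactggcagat
IL1RN: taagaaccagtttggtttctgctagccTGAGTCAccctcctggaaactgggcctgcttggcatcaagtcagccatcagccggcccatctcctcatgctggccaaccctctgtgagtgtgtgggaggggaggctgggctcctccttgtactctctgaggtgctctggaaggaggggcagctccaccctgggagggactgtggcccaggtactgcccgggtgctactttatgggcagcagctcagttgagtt
IRAK1: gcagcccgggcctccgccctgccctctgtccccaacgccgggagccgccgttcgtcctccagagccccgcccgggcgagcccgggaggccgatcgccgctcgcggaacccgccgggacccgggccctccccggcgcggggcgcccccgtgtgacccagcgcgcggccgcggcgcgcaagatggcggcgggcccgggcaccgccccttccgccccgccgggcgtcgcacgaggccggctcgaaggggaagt
The first of the windows that RefSeq lists was used, of 2 for IL1A and 3 for IL1RN. The IL1A window held the letters TATAAA, starting 239 bases before the transcript start, and an AP-1 match that starts 12 bases before it. IL1RN had an AP-1 match at 223 bases, and IL1B and IRAK1 had no match. Matches were to exact letters at any position in the window, so TATAAA at 239 bases is not read as a working TATA box. Absence of a match does not show that a gene lacks such a box. The C/EBP motif TTNNGCAAT and the NF-kB consensus were searched in the same way, with no match in any of the 4 windows and no overlap between the matches found. Over all 27305 RefSeq windows of this length the shares with a match were 11.1% for the TATA box, 6.6% for AP-1, 2.1% for C/EBP and 5.1% for NF-kB. GC content was 37.6%, 40% and 59.6% in the IL1A, IL1B and IL1RN windows, against 82.4% with 43 CpG pairs in IRAK1 and a median of 58.0% over all windows.

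Levels are given as CPM, which are counts relative to the TMM-adjusted library size. Gene totals ran from 28496518 to 37721363 reads per library, so 1 CPM stood for at least 28 reads, and 3 reads over a group of 3 libraries were taken as the limit of detection (counting error only). A change was called at an edgeR quasi-likelihood adjusted p below 0.05 over the 15506 genes tested. Markers of the melanocyte lineage summed to 31.3 to 33.7 CPM in resistant and 373 to 383 CPM in sensitive A375 libraries, with TYR at 0 reads in both groups. Most of this A375 difference was SOX10, at 0.138 CPM in resistant and 325 CPM in sensitive cells. S100B also fell (-6.74 on the log2 scale), and MITF stood at 31.0 and 39.6 CPM in resistant and sensitive A375. TYRP1 and DCT were called higher there, from 36 and 4 reads over resistant A375. The same markers summed to 10925 to 11077 CPM in resistant and 7268 to 7708 CPM in sensitive SKMel28 libraries. Most of this rise was PMEL (6114 and 4545 CPM in resistant and sensitive cells) and TYRP1 (2037 and 218 CPM). MITF, MLANA and TYR were also called higher in SKMel28, while S100B (-1.33), SOX10 (-0.34) and DCT (-0.29) fell. PTPRC, the surface phosphatase that marks blood leukocytes, had at most 9 reads over any group, and FCGR3A had none. Over resistant and sensitive A375, ITGAM had 17 and 0 reads, CD14 12 and 37, and CD163 0 and 9. Each of these had at most 6 reads over an SKMel28 group. Of the 8 myeloid markers 3 passed the filter on low counts, CD68, LYZ and CSF1R. LYZ, which encodes lysozyme, was at 2.07 and 8.66 CPM in resistant and sensitive A375 and at 0.0510 and 1.30 CPM in resistant and sensitive SKMel28, and fell in both lines (-2.06 and -4.57 on the log2 scale, edgeR adjusted p = 4.63e-12 and 1.08e-10). CSF1R, the receptor of a macrophage growth factor, had 69 and 25 reads over resistant and sensitive A375 (1.45, edgeR adjusted p = 0.0172) and 6 and 27 reads over resistant and sensitive SKMel28 (-2.23, edgeR adjusted p = 0.0101). CSF1R thus moved in the directions of IL1B, and its part in that result was not tested. CD68, a lysosomal protein also made outside the myeloid lineage, made up most of the summed list, at 57.5 and 31.0 CPM in resistant and sensitive A375 and at 761 and 211 CPM in resistant and sensitive SKMel28. In bulk RNA, fewer cells that make a transcript and less RNA per cell cannot be told apart.

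The first question was how the family differed between resistant and sensitive A375 cells. Of the 10 members, 8 had enough reads in A375 to be compared: IL1B, CASP1, IL18 and MYD88 rose, IL1RAP and IL1R1 fell, and IL1A and IRAK1 were not called. Among all genes tested 51.3% were called in this comparison, 25.0% higher and 26.3% lower. The median log2 fold change of the 8 members was 0.26, against 0.0 over all genes tested. IL33 had no read in any A375 library. IL1RN had 2 reads over the resistant group and none over the sensitive group.

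In SKMel28 the same question gave 1 rise and 5 falls among the 8 members that could be compared. MYD88 rose, and IL1B, CASP1, IRAK1, IL1RAP and IL1A fell, with IL1R1 and IL33 not called. Of all genes tested 70.0% were called in SKMel28, 34.2% higher and 35.8% lower. The median log2 fold change of the 8 members was -0.80, against -0.01 over all genes tested. IL18 had 3 reads over the resistant and 2 over the sensitive group, and gives no fold change. The members that pass a filter on low counts do so in part through the group where they are high, so these counts and medians describe the family and test nothing.

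**Figure D1:**
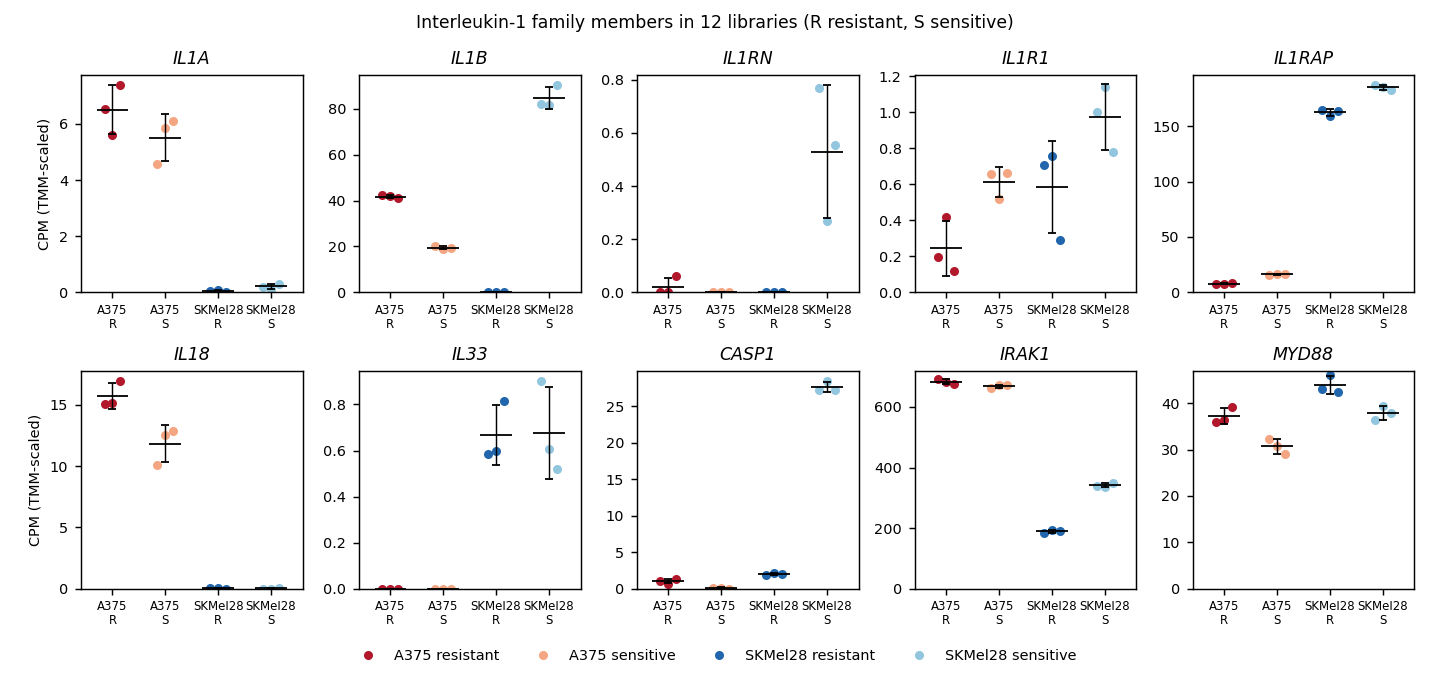
TMM-scaled CPM of the 10 members in each of the 12 libraries (vertical axis, linear from 0, its own range in each panel). Points are libraries, horizontal lines group means and bars SD (n = 3). IL1B stands near 84.8 CPM in sensitive SKMel28 and near 0 in resistant SKMel28, while the A375 groups stand at 41.7 and 19.4 CPM.

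IL1B, which encodes the secreted cytokine interleukin-1 beta, moved in opposite directions in the lines. Its levels were 42.4, 41.8 and 41.0 CPM in resistant A375, against 20.1, 18.9 and 19.1 CPM in sensitive A375. The groups did not overlap, and the log2 fold change was 1.10 ± 0.06 SE (2.15-fold, edgeR adjusted p = 5.84e-19). In SKMel28 the resistant libraries held 6, 2 and 1 reads of IL1B (0.184, 0.0630 and 0.0292 CPM), against 82.1, 81.8 and 90.4 CPM in the sensitive libraries. The resistant SKMel28 cells were thus close to the limit of detection for a transcript that was at its highest in their sensitive counterparts (891-fold lower, log2 fold change -9.80 ± 0.14 SE, edgeR adjusted p = 9.65e-42). Its size rests on 9 reads in resistant SKMel28, and without resistant replicate 1 it was -10.75. Ordered by mean, sensitive SKMel28 came first, then resistant A375, sensitive A375 and resistant SKMel28, and no neighbouring groups in that order overlapped.

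IL1A, its neighbour in the cluster, encodes interleukin-1 alpha, which is active without caspase-1. It followed another order, with both A375 groups far above both SKMel28 groups. Its levels were 6.51, 5.62 and 7.39 CPM in resistant A375, against 4.56, 5.85 and 6.12 CPM in sensitive A375. These groups overlapped, and the log2 fold change of 0.25 ± 0.17 SE was not called (95% interval -0.09 to 0.58, edgeR adjusted p = 0.228). In SKMel28 there were 2, 3 and 0 reads in the resistant libraries, against 6, 4 and 9 in the sensitive ones. This difference, from 5 and 19 reads in all, was called (log2 fold change -1.97 ± 0.72 SE, edgeR adjusted p = 0.0137). The call was lost without resistant replicate 3 (-1.39, edgeR adjusted p = 0.0888) or sensitive replicate 3 (-1.65, edgeR adjusted p = 0.0769), and the value was -2.66 without resistant replicate 2. Sensitive A375 cells held 25.7-fold more IL1A than sensitive SKMel28 cells (log2 difference 4.68 ± 0.29 SE, edgeR adjusted p = 5.09e-19), where 82.9% of all genes tested were called.

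IL18 encodes interleukin-18, the other cytokine that caspase-1 matures, and was an A375 transcript in this series. Resistant A375 libraries held 15, 15.2 and 16.9 CPM, against 10.1, 12.5 and 12.9 CPM in sensitive A375 libraries. The groups did not overlap, and the rise was called (log2 fold change 0.41 ± 0.12 SE, edgeR adjusted p = 0.00256). It was not called without sensitive replicate 1, the lowest of the 6 (0.30, edgeR adjusted p = 0.0542). In SKMel28 no library had more than 2 reads of IL18. Resistant A375 held 1607 reads and resistant SKMel28 3 reads, a ratio of 516 after scaling with an exact 95% interval of 176 to 2502 for counting error only. This difference was called (edgeR adjusted p = 3.97e-29), in a comparison that called 85.3% of all genes tested.

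IL33 encodes interleukin-33, a nuclear protein released from damaged cells, and its few reads were in SKMel28. Resistant SKMel28 libraries had 19, 19 and 28 reads (0.584, 0.599 and 0.816 CPM), against 27, 18 and 16 reads (0.900, 0.605 and 0.521 CPM) in sensitive libraries. The groups overlapped, and the log2 fold change was -0.02 ± 0.44 SE (95% interval -0.90 to 0.87, edgeR adjusted p = 0.989). A change within that interval, in either direction, cannot be told apart from none at this depth. With A375 at 0 and the same floor of 3 reads, IL33 was at least 22.7-fold lower in resistant A375 than in resistant SKMel28, and at least 23.1-fold lower in sensitive A375 than in sensitive SKMel28.

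IL1RN encodes the receptor antagonist, the natural inhibitor of both interleukin-1 cytokines. It had no read in resistant SKMel28 libraries, against 23, 8 and 17 reads (0.767, 0.269 and 0.554 CPM) in sensitive ones. Against the floor of 3 reads, the level in resistant SKMel28 was at least 17.4-fold lower. IL1RN did not pass the filter on low counts. With no filter its SKMel28 difference had an edgeR adjusted p of 4.67e-06. In sensitive SKMel28, the group with the highest IL1B, transcripts per kilobase of the antagonist stood at 0.229 CPM per kb, against 52.0 CPM per kb for IL1B.

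IL1R1, the chain that binds the cytokines, had few reads in all 4 groups. Resistant A375 libraries had 7, 14 and 4 reads (0.196, 0.416 and 0.121 CPM), against 26, 17 and 20 reads (0.655, 0.518 and 0.665 CPM) in sensitive A375 libraries. The groups did not overlap, and the fall was called (log2 fold change -1.32 ± 0.49 SE, edgeR adjusted p = 0.0213). Leaving out resistant replicate 1 (-1.14, edgeR adjusted p = 0.0804), resistant replicate 3 (-0.97, edgeR adjusted p = 0.120), sensitive replicate 1 (-1.26, edgeR adjusted p = 0.0603) or sensitive replicate 3 (-1.26, edgeR adjusted p = 0.0531) ended that call. Resistant SKMel28 libraries had 0.706, 0.757 and 0.292 CPM, against 1.00, 1.14 and 0.782 CPM in sensitive SKMel28 libraries. The resistant group was lower in all 3 libraries, yet the difference was not called (-0.74 ± 0.41 SE, 95% interval -1.57 to 0.09, edgeR adjusted p = 0.106). The changes of IL1R1 in the lines did not differ beyond their error (-0.57 ± 0.64 SE, edgeR adjusted p = 0.447).

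IL1RAP, the accessory chain shared by the receptors of interleukin-1, interleukin-33 and the interleukin-36 cytokines, was far more abundant and marked the line. Its levels were 7.55, 7.61 and 8.08 CPM in resistant A375, against 15.3, 16.2 and 16.8 CPM in sensitive A375. The resistant A375 cells had less than any sensitive library (2.08-fold lower, log2 change -1.05 ± 0.07 SE, edgeR adjusted p = 5.30e-18). In SKMel28 the resistant libraries had 164, 159 and 164 CPM, against 188, 185 and 183 CPM in the sensitive ones. This small fall was also called and the groups did not overlap (-0.19 ± 0.04 SE, edgeR adjusted p = 4.31e-05). Between resistant A375 and resistant SKMel28 the log2 difference was -4.39 ± 0.05 SE (edgeR adjusted p = 1.17e-45), and between the sensitive cells it was -3.52 ± 0.05 SE (edgeR adjusted p = 1.49e-43).

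CASP1, which encodes the protease that matures interleukin-1 beta and interleukin-18, changed in the same sense as IL1B in each line. Resistant A375 libraries had 40, 24 and 43 reads (1.12, 0.714 and 1.30 CPM), against 6, 5 and 0 reads (0.151, 0.152 and 0 CPM) in sensitive A375 libraries. All resistant libraries exceeded all sensitive ones, from a level near the limit of detection (9.45-fold higher, log2 change 3.24 ± 0.40 SE, edgeR adjusted p = 3.00e-09). In SKMel28 the levels were 1.84, 2.11 and 2.01 CPM in resistant cells, against 27.3, 28.4 and 27.3 CPM in sensitive cells. The fall was 13.9-fold with no overlap (log2 fold change -3.80 ± 0.14 SE, edgeR adjusted p = 2.85e-26). CARD16, a near-copy of the first part of CASP1 next to it on chromosome 11, may share reads with it, so the counts of the pair are uncertain.

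MYD88, the adaptor that links the receptors to the IRAK kinases, was the only member that rose in both lines. Its levels were 36, 36.5 and 39.2 CPM in resistant A375, against 32.4, 30.7 and 29.1 CPM in sensitive A375 (log2 change of 0.27 ± 0.06 SE, edgeR adjusted p = 1.42e-04). They were 43.0, 46.1 and 42.5 CPM in resistant SKMel28, against 36.3, 39.3 and 37.8 CPM in sensitive SKMel28 (0.22 ± 0.06 SE, edgeR adjusted p = 0.00125). Neither pair of groups overlapped, and the changes did not differ beyond their error (0.06 ± 0.08 SE, 95% interval -0.11 to 0.23, edgeR adjusted p = 0.559). Across the 4 group means, from 30.7 to 43.9 CPM, MYD88 varied least of the members in proportion to its level.

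IRAK1, the kinase that MYD88 engages through IRAK4, was the member with the most transcripts per kilobase in every group. In A375 it was at 693, 682 and 675 CPM in resistant cells, against 663, 671 and 671 CPM in sensitive cells. The libraries did not overlap, but the difference was 0.03 ± 0.03 SE on the log2 scale and not called by edgeR (95% interval -0.03 to 0.10, edgeR adjusted p = 0.417), while DESeq2 called it (0.07, DESeq2 adjusted p = 0.0304). In SKMel28 it was at 184, 194 and 191 CPM in resistant cells, against 340, 337 and 350 CPM in sensitive cells. This fall was 1.80-fold with no overlap (-0.85 ± 0.03 SE, edgeR adjusted p = 9.29e-26). IRAK1 shares 61 of its exon bases (1.63%) with MIR718, counted as a separate gene.

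**Figure D2:**
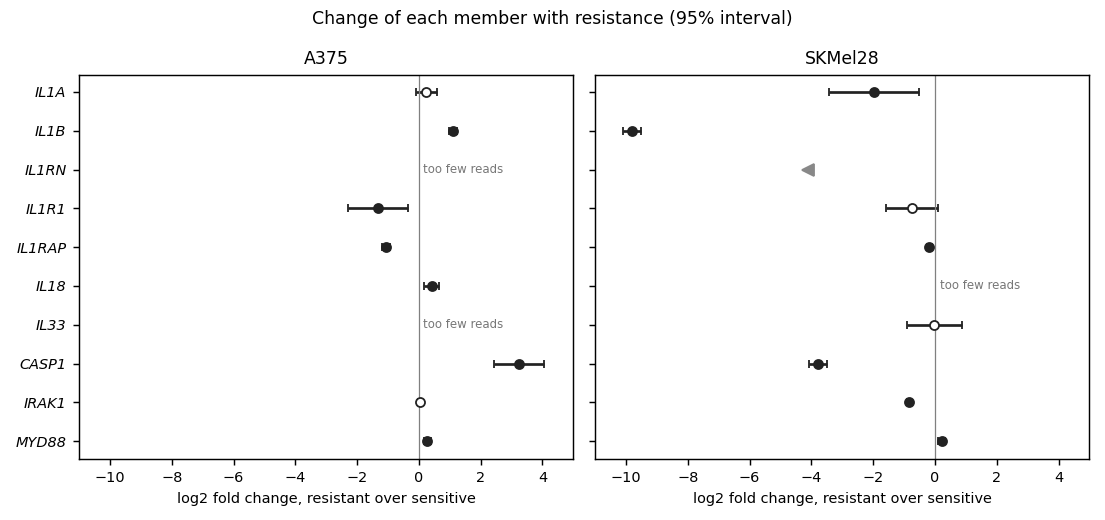
Fitted log2 fold change of each member, resistant over sensitive, in A375 (left) and SKMel28 (right), with 95% intervals. Filled points were called by edgeR and open points were not, and the grey arrow is the bound for IL1RN with no read in resistant SKMel28. IL1B and CASP1 lie right of 0 in A375 (1.10 and 3.24) and left of it in SKMel28 (-9.80 and -3.80).

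The change with resistance could be compared between the lines for 7 members. It differed for 5 of them, 4 with the higher change in A375 and 1 with the lower, while 63.8% of all genes tested differed, 31.4% higher and 32.4% lower. The A375 change minus the SKMel28 change was 10.90 ± 0.17 SE for IL1B (edgeR adjusted p = 1.48e-40), 7.04 ± 0.39 SE for CASP1 (edgeR adjusted p = 8.14e-20), 2.22 ± 0.73 SE for IL1A (edgeR adjusted p = 0.00793) and 0.88 ± 0.05 SE for IRAK1 (edgeR adjusted p = 5.21e-21). IL1RAP had the opposite sign, -0.87 ± 0.08 SE (edgeR adjusted p = 2.24e-13), because its fall was the larger in A375. IL1A lost this call without SKMel28 resistant replicate 3 (1.63, edgeR adjusted p = 0.0522) or SKMel28 sensitive replicate 3 (1.89, edgeR adjusted p = 0.0501), and was at 2.91 without SKMel28 resistant replicate 2. The IL1B difference was 11.85 without SKMel28 resistant replicate 1.

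Between the lines themselves, 8 members were called in sensitive A375 against sensitive SKMel28, 3 higher (IL1A, IL18 and IRAK1) and 5 lower (IL1B, IL1RAP, IL33, CASP1 and MYD88), beside 42.4% of all genes higher and 40.5% lower. In resistant A375 against resistant SKMel28, 9 were called, 4 higher (IL1A, IL1B, IL18 and IRAK1) and 5 lower (IL1R1, IL1RAP, IL33, CASP1 and MYD88), beside 42.6% of all genes higher and 42.7% lower. IL1B thus stood on the opposite side in the resistant pair (log2 difference 8.78 ± 0.16 SE, edgeR adjusted p = 2.07e-39) and in the sensitive pair (-2.13 ± 0.06 SE, edgeR adjusted p = 6.77e-31), and the resistant value was 9.72 without SKMel28 resistant replicate 1. For CASP1 the log2 difference was -0.93 ± 0.21 SE in the resistant pair (edgeR adjusted p = 1.20e-04) and -7.96 ± 0.23 SE in the sensitive pair (edgeR adjusted p = 1.79e-31). Scaled by library size alone, the resistant pair lost the calls of MYD88 (-0.02, edgeR adjusted p = 0.713) and IL1R1 (-1.03, edgeR adjusted p = 0.0501), and IL1R1 also lost it without any 1 of 4 libraries (edgeR adjusted p 0.0672 to 0.105).

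Per kilobase of exon, the order of the members showed how each group was made up. In resistant A375, IRAK1 (183 CPM per kb) was followed by IL1B (25.6), IL18 (13.4), MYD88 (13), IL1A (3.06) and IL1RAP (0.779). In sensitive A375 the same genes stood at 178, 11.9, 10.1, 10.7, 2.6 and 1.62 CPM per kb. In resistant SKMel28, IRAK1 (50.7 CPM per kb) was followed by IL1RAP (16.3) and MYD88 (15.3), with CASP1 at 0.745 and every cytokine at or below 0.246 CPM per kb. In sensitive SKMel28 it was IRAK1 (91.5), IL1B (52.0), IL1RAP (18.6), MYD88 (13.2) and CASP1 (10.4 CPM per kb). Transcripts of the binding chain IL1R1 were at or below 0.154 CPM per kb in all 4 groups.

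The rest of the pathway was read in lists of other ligands, other receptors and decoys, receptor-proximal signalling, processing and response genes. Of the 6 other family ligands, 5 did not pass the filter on low counts. IL36RN, the antagonist of the interleukin-36 receptor, was the exception and fell in SKMel28, with no read in resistant libraries and 42 over the sensitive ones (at least 15.3-fold lower, edgeR adjusted p = 1.03e-05).

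Among the other receptors and decoys, IL1RL1, which encodes the interleukin-33 receptor ST2, had no read in any resistant library of either line. Sensitive A375 cells had 5.90, 4.02 and 5.82 CPM and sensitive SKMel28 cells 4.94, 4.94 and 6.84 CPM. Against that floor, IL1RL1 was at least 179-fold lower in resistant A375 (edgeR adjusted p = 1.17e-18) and at least 183-fold lower in resistant SKMel28 (edgeR adjusted p = 3.25e-19). IL18R1, the receptor chain that binds interleukin-18, fell to 0.138 ± 0.0497 CPM in resistant A375, against 4.05 ± 0.405 CPM in sensitive A375 (SD, n = 3), a change of -4.85 ± 0.41 SE (edgeR adjusted p = 1.15e-13). SIGIRR, an inhibitory receptor of the family, fell in A375 (-0.52 ± 0.12 SE, edgeR adjusted p = 3.28e-04) and rose in SKMel28 (2.74 ± 0.30 SE, edgeR adjusted p = 4.72e-11, and 3.48 without sensitive replicate 1). IL1RAPL1, a family member studied mainly at synapses, fell in SKMel28 (-1.34 ± 0.14 SE, edgeR adjusted p = 2.52e-11). Of 5 receptors and decoys compared in each line, 4 were lower and none higher in resistant A375 (26.3% and 25.0% of all genes), and in resistant SKMel28 2 were lower and 1 higher (35.8% and 34.2% of all genes). In SKMel28 that share called is near the 70.0% over all genes.

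**Figure D3:**
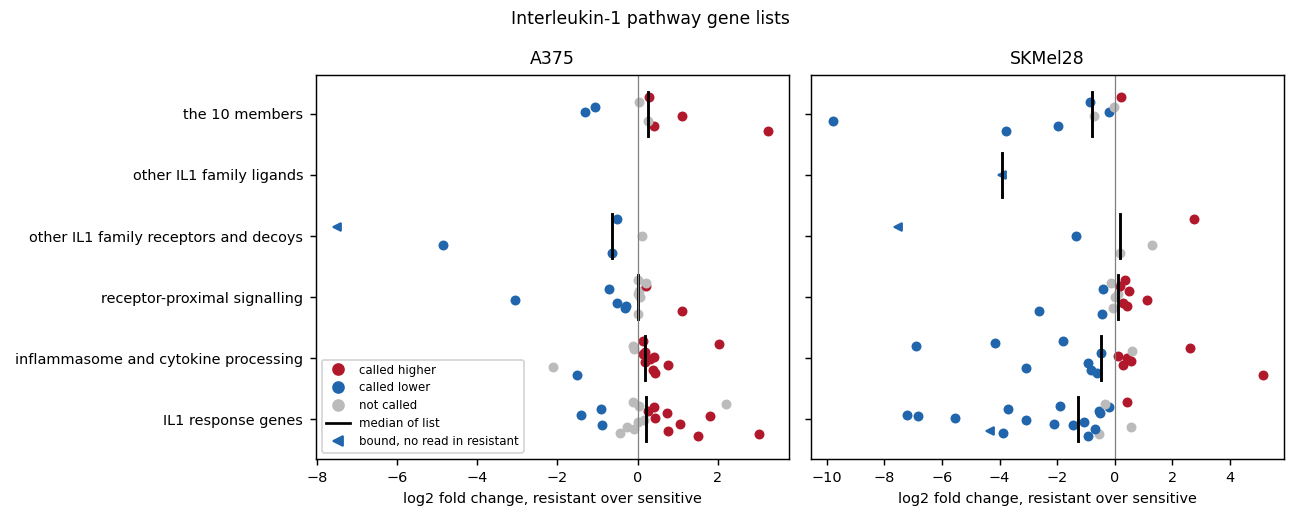
Log2 fold change, resistant over sensitive, of the genes of each list in A375 (left) and SKMel28 (right). Each symbol is a gene, red called higher, blue called lower and grey not called, arrows are bounds for genes with no read in resistant cells, and black bars are list medians. Response genes have a median of 0.21 in A375 and -1.26 in SKMel28.

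Of 13 genes of receptor-proximal signalling, A375 had 2 called higher and 5 called lower (median log2 fold change 0.01), and SKMel28 had 6 called higher and 3 called lower (median 0.12). These shares are near the 51.3% of all genes called in A375 and the 70.0% in SKMel28. IRAK2, the relative of IRAK1 that sustains late signalling, rose in A375 to 14.4 CPM in resistant cells, against 6.75 CPM in sensitive cells (1.10 ± 0.13 SE, edgeR adjusted p = 2.20e-09). In SKMel28 IRAK2 fell to 0.509 CPM in resistant cells, against 3.20 CPM in sensitive cells (-2.65 ± 0.25 SE, edgeR adjusted p = 7.85e-13). PELI2, a ubiquitin ligase of the Pellino family, went the other way, with -3.06 ± 0.22 SE in A375 (edgeR adjusted p = 1.01e-15) and 1.11 ± 0.12 SE in SKMel28 (edgeR adjusted p = 4.51e-11). TAB3, an adaptor of the kinase TAK1, fell in A375 (-0.72 ± 0.05 SE, edgeR adjusted p = 4.08e-15) and in SKMel28 (-0.43 ± 0.05 SE, edgeR adjusted p = 8.19e-10). Its relative TAB2 was not called in A375 (0.04 ± 0.05 SE, edgeR adjusted p = 0.503) and rose in SKMel28 (0.50 ± 0.05 SE, edgeR adjusted p = 9.65e-13).

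Of 14 genes of inflammasomes and cytokine processing compared in A375, 10 rose and 1 fell (median 0.18), and of 15 compared in SKMel28, 6 rose and 8 fell (median -0.46). Over all genes tested the shares were 25.0% higher and 26.3% lower in resistant A375 and 34.2% higher and 35.8% lower in resistant SKMel28. NLRP3, the sensor of the best studied inflammasome, rose in A375 to 12, 12.4 and 13.7 CPM in resistant libraries, against 3.33, 2.96 and 3.09 CPM in sensitive ones (2.02 ± 0.15 SE, edgeR adjusted p = 8.56e-16). In SKMel28 NLRP3 had 1 read over the resistant group, against 150 over the sensitive group (ratio 0.00612, exact 95% interval 1.54e-04 to 0.0346 for counting error only). The sensor genes NLRP1 and AIM2 went the other way there. NLRP1 had 2993 reads over resistant and 450 over sensitive SKMel28 (2.61 ± 0.11 SE, edgeR adjusted p = 1.58e-24). AIM2 had 166 and 4 reads (5.14 ± 0.58 SE, edgeR adjusted p = 1.39e-10). In A375 AIM2 fell (-1.51 ± 0.33 SE, edgeR adjusted p = 1.54e-04) and NLRP1 was not called (-0.13 ± 0.10 SE, edgeR adjusted p = 0.329). NLRC4 was not called in either line. PYCARD, the adaptor ASC that joins NLRP3 to caspase-1, had no read in any A375 library. It fell in SKMel28 to 1.78, 1.64 and 1.78 CPM in resistant libraries, against 28.9, 32.0 and 32.1 CPM in sensitive ones (-4.16 ± 0.13 SE, edgeR adjusted p = 4.10e-27). The calpain genes CAPN1 (0.44 ± 0.04 SE, edgeR adjusted p = 8.04e-12) and CAPN2 (0.39 ± 0.03 SE, edgeR adjusted p = 1.91e-14) rose in A375. Calpain cuts the interleukin-1 alpha precursor. In SKMel28 CAPN2 fell (-0.83 ± 0.03 SE, edgeR adjusted p = 1.98e-25), as did S100A13, which takes part in the export of interleukin-1 alpha (-1.80 ± 0.04 SE, edgeR adjusted p = 3.31e-33).

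Of 20 genes known to respond to interleukin-1, 16 fell and 1 rose in SKMel28 (median -1.26), and 9 rose and 3 fell in A375 (median 0.21). Beside them stand 35.8% of all genes lower and 34.2% higher in SKMel28, and 25.0% higher and 26.3% lower in A375. MMP1, which encodes the interstitial collagenase, was at 41.0, 39.2 and 43.7 CPM in resistant A375, against 12.4, 10.7 and 12.3 CPM in sensitive A375 (1.80 ± 0.07 SE, edgeR adjusted p = 2.05e-24). In SKMel28 MMP1 was at 0.584, 0.820 and 1.20 CPM in resistant cells, against 99.98, 94 and 103 CPM in sensitive cells (-6.82 ± 0.11 SE, edgeR adjusted p = 2.84e-40). These groups did not overlap in either line. LIF, a cytokine of the interleukin-6 family, fell in SKMel28 to 2.29 ± 0.422 CPM in resistant cells, against 106 ± 7.33 CPM in sensitive cells (SD, n = 3), a change of -5.54 ± 0.08 SE (edgeR adjusted p = 8.25e-42). The neutrophil chemokine gene CXCL8 rose in A375 (1.06 ± 0.06 SE, edgeR adjusted p = 1.69e-19) and fell in SKMel28 (-2.10 ± 0.05 SE, edgeR adjusted p = 7.66e-35). CCL2, the monocyte chemokine, rose in A375 (3.01 ± 0.22 SE, edgeR adjusted p = 1.25e-15) and was not called in SKMel28 (-0.54 ± 0.27 SE, edgeR adjusted p = 0.0676), though it was without resistant replicate 3 (edgeR adjusted p = 0.0408) or sensitive replicate 3 (edgeR adjusted p = 0.00874). These genes answer to many other signals, and the part of the interleukin-1 genes in their changes was not tested.

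Profiles most like those of IL1B and IL1A were sought among 14076 genes with a group mean of at least 1 CPM, by Euclidean distance between gene-centred log2 CPM values (prior count 2) over the 12 libraries. The nearest to IL1B were ITGA4 (distance 2.13), SPESP1 (2.77), HOXB13 (3.51), TNFRSF10B (3.66) and TFPI2 (3.75). ITGA4, an integrin chain, had 37.6, 47.0, 0.214 and 117 CPM in resistant A375, sensitive A375, resistant SKMel28 and sensitive SKMel28. All 5 shared the near loss of reads in resistant SKMel28, at or below 0.225 CPM. In A375, where IL1B rose (1.10), ITGA4 fell (-0.33) and HOXB13 was not called (0.03). SPESP1 (0.41), TNFRSF10B (0.36) and TFPI2 (3.16) rose there. The nearest to IL1A were CDR2L (distance 1.05), DKK3 (1.17), ADRA1B (1.29), BST1 (1.31) and HES2 (1.33). All 5 were at 2.73 CPM or more in both A375 groups and at 1.22 CPM or less in both SKMel28 groups. The 12 libraries form 4 groups, so such likeness rests on 4 group levels, and shared levels follow from the choice by likeness.

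The genes around each member were read beside it, taking tested genes whose leftmost base lies within 1 Mb of its own. Among the 20 such genes of IL1B, the median log2 fold change was 0.11 in A375 and -0.27 in SKMel28. The lowest in SKMel28 were IL36RN (no read against 42, at least 15.3-fold lower), SLC20A1 (-2.48) and IL1A (-1.97). The highest was SLC35F5 (1.48). IL1RN of the same cluster, not among the tested genes, had 0 reads over resistant and 48 over sensitive SKMel28. On the whole long arm of chromosome 2 the median was 0.02 in A375 and 0.13 in SKMel28. Near CASP1 (chr11:105025443-105035250) the 3 tested neighbours had negative values in SKMel28, CARD16 (-3.08), CASP4 (-0.92) and MSANTD4 (-0.56). CARD16 is the near-copy that may share reads with CASP1. In A375 these genes had -2.12, 0.17 and 0.17, where CARD16 had 2 and 10 reads and was not called (edgeR adjusted p = 0.112). On the long arm of chromosome 11 the median was 0.04 in A375 and -0.14 in SKMel28. IL1R1 (chr2:102064544-102179874) had IL1RL1 and IL18R1 within 1 Mb, and the median of its 8 neighbours was -0.01 in A375 and -0.27 in SKMel28. Around IRAK1 (chrX:154010500-154019980) 48 genes had a median of 0.08 in A375 and 0.03 in SKMel28, and around MYD88 (chr3:38138478-38143022) 15 genes had -0.09 and 0.20. The median beside IL1RAP (chr3:190514051-190659750), over 3 genes, was 0.24 and -0.57.

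**Figure D4:**
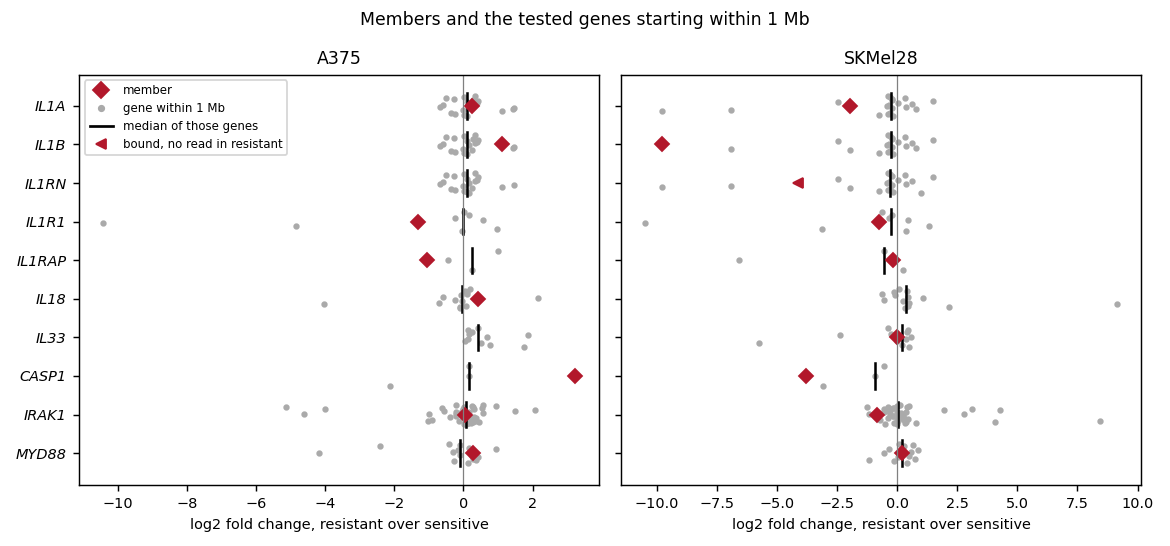
Log2 fold change, resistant over sensitive, of each member (red diamonds, or an arrow for the bound of IL1RN) and of the tested genes whose leftmost base lies within 1 Mb of its own (grey), with their median as a black bar, in A375 (left) and SKMel28 (right). Members of 1 cluster are also neighbours of each other. IL1B lies at -9.80 in SKMel28, and its neighbours run from -6.94 (IL36RN, no read in resistant cells) to 1.48, with a median of -0.27.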

How the data were processed

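The authors deposited raw counts of reads per gene symbol, with each library in its own file. HISAT2, StringTie and GRCh38.p12 are named in the submitters' processing notes, whereas the deposited files' own names point to STAR and unstranded counting, so which aligner made the counts is not settled, and reads of overlapping genes on opposite strands cannot be told apart. Reads not assigned to 1 gene (15.1% to 19.5% of counted reads, of which reads in no gene made 11.7% to 13.5% of counted reads) were left out of library sizes. They made 15.1% to 15.6% in resistant SKMel28 and 17.1% to 19.5% in the other groups. Reads aligned to more than 1 place made 2.1% to 2.4% in resistant SKMel28, against 4.0% to 5.0% in the other groups. Genes were filtered with filterByExpr (minimum count 10), scaled by TMM and fitted with 4 group means (edgeR 4.0.16, robust quasi-likelihood, R 4.3.3), two-sided, with Benjamini-Hochberg adjustment over 15506 genes. CPM and fold changes are computed from these counts, and fitted fold changes use a prior count of 0.125. DESeq2 1.42.0, other scalings, no filter, a replicate block, fits of 2 groups alone and leaving out each library were the alternatives. The steps were tested on simulated data for the A375 comparison only, with the same spread for all genes and changes in genes of at least 1 CPM. Members with few reads and the other comparisons were not covered. Lengths and positions come from GENCODE release 29 (93.9% of tested genes matched) and promoters from RefSeq, with a window for 8 of the 10 members. No 2 libraries of a group agreed within sampling noise (chi-square per degree of freedom at least 2.81).

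The members and gene lists were chosen with earlier results of these data known. Genes outside the members were named by a rule: up to 3 called genes of smallest adjusted p per list and line, and the 5 genes nearest to IL1B and to IL1A. Others are given beside them, chosen after their values were seen. These are NLRP3, TAB3 and CCL2 in SKMel28, and PYCARD and TAB2 in A375. NLRP1, AIM2 and NLRC4 in both lines, and the neighbours of IL1B, CASP1 and IL1R1, were also chosen so. Of the marker lists only the sums and a few genes are given, some of them chosen after their values were seen. Those for other cell types were keratinocyte, fibroblast, and endothelial and lymphocyte genes beside the myeloid and melanocyte ones. Their summed levels were 83.3 to 93.7 and 121 to 125 CPM (keratinocyte, mainly KRT10), 4.99 to 5.03 and 9.22 to 10.2 CPM (fibroblast) and 2.79 to 3.44 and 0.732 to 1.68 CPM (endothelial and lymphocyte) in resistant and sensitive A375. In resistant and sensitive SKMel28 they were 28.1 to 33.6 and 66.5 to 70.5 CPM, 17.4 to 20.9 and 26.6 to 26.9 CPM, and 1.20 to 1.60 and 1.11 to 2.00 CPM. In the last list, CD3D (51 and 1 reads over resistant and sensitive A375) and PECAM1 (248 and 64 reads) were called higher in A375. Their log2 changes were 5.22 and 1.94 (edgeR adjusted p = 1.9e-05 and 8.2e-06), and VWF was not called.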

Additional observations from a re-analysis of the deposited data

Results flagged for a closer look

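The change with resistance differed between A375 and SKMel28, by the edgeR test of the difference itself, for members and for genes that the rule named from the other lists. Each value is the log2 change in A375 minus that in SKMel28. Members had 10.90 (IL1B), 7.04 (CASP1), 2.22 (IL1A), 0.88 (IRAK1) and -0.87 (IL1RAP). Receptors had -6.15 (IL18R1), -3.26 (SIGIRR) and 1.45 (IL1RAPL1), and signalling genes 3.75 (IRAK2), -4.17 (PELI2), -0.46 (TAB2) and -0.29 (TAB3). Processing genes had 8.92 (NLRP3, with 1 read over the resistant SKMel28 group), 1.06 (CAPN1), 1.22 (CAPN2) and 1.93 (S100A13). Low reads in SKMel28 make some of these uncertain in size. IL18R1 had 14 reads over resistant and 5 over sensitive SKMel28, and without sensitive replicate 3 its difference was -10.13 and its SKMel28 change, otherwise not called, was 5.27 (edgeR adjusted p = 0.00432). The NLRP3 difference was 10.79 without resistant SKMel28 replicate 2, that of IL1B 11.85 without resistant SKMel28 replicate 1, that of IL1A 2.91 without resistant SKMel28 replicate 2, and that of SIGIRR -3.998 without sensitive SKMel28 replicate 1. Response genes had 8.62 (MMP1), 5.98 (LIF), 3.55 (CCL2) and 3.16 (CXCL8). Among these 20 genes the largest edgeR adjusted p was 0.00793, for IL1A. Only genes called in this comparison are listed, so each adjusted p is below 0.05 by that rule and the list tests nothing. The members MYD88 and IL1R1 were compared and did not differ (edgeR adjusted p = 0.559 and 0.447). Of all genes tested 63.8% differed in the same comparison.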

How the results depend on the processing

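The members compared had equal numbers of calls in both resistance comparisons with DESeq2 size factors, with library size alone and with no filter. With no filter IL1RN, otherwise not tested, was also called lower in SKMel28 (edgeR adjusted p = 4.67e-06). It had 0 reads over resistant and 48 over sensitive SKMel28, so its size is known only as at least 17.4-fold lower. By DESeq2 IRAK1 was also called in A375, and in the fit of the SKMel28 groups alone IL1A did not pass the filter. Leaving out single libraries gave 4 to 6 members called in A375, against 6 (3 to 4 higher, 1 to 2 lower), 5 to 6 in SKMel28, against 6, and 4 to 5 for the difference between lines, against 5. The log2 change of IL33 in SKMel28, -0.02 with all libraries, turned to 0.07 without resistant replicate 1, 0.06 without resistant replicate 2 and 0.25 without sensitive replicate 1, with a range of -0.19 to 0.25 over all libraries left out in turn. Scaling by library size alone moved the median of all genes between resistant A375 and resistant SKMel28 to 0.23, against 0.01. In that comparison 4 members were then called higher and 3 lower, against 4 and 5, since MYD88 and IL1R1 lost their calls. Leaving out single libraries gave 4 to 5 members lower there. In the per-kilobase order the longest transcript in place of the exon union, chosen after seeing the data, exchanged IL1A with IL1RAP in sensitive A375, and MYD88 with CASP1 and IL33 with IL1RN in sensitive SKMel28.

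Residuals of libraries with equal replicate number had correlations from -0.0285 to 0.00986 in A375 and from 0.0131 to 0.0477 in SKMel28. Those of unequal number ran from -0.0625 to 0.0521 in A375 and from -0.0631 to 0.0392 in SKMel28. These values do not settle whether the libraries were paired. With replicate number as a block 8077 genes were called in A375 and 10896 in SKMel28, against 7959 and 10854, and no member changed its call. Depth limits IL1R1, IL33 and IL1RN in both lines, CASP1 in A375, and IL1A and IL18 in SKMel28, which rest on at most 107 reads a group. The size of the IL1B fall in SKMel28 rests on 9 reads over the resistant group.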
